A study of Xenopus laevis with 46 samples.

Results

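Xenopus laevis embryos labelled as injected with xWnt8 mRNA (Wnt8-labelled) were set against control whole embryos, with no treatment in their labels, at stage 10.5, the early gastrula. The comparison used 6 of the 46 libraries of the series: Wnt8-labelled replicates 1, 2 and 3, each paired with the whole-embryo control that the labels name as its batch mate, which was control 4, 5 or 6. Embryos came from Nasco frogs, mRNA was injected between the 2-cell and the 4-cell stage, and polyA-selected RNA was read as single-end 100-base reads. No mRNA dose and no injection site is given for these libraries in the sources used here, and nothing says whether batches were separate clutches or how many embryos made up a library. Fold changes come from those 6 libraries, while their standard errors and p-values rest on the spread left in all 19 whole-embryo libraries of stage 10.5, fitted together with 8 residual degrees of freedom. That spread is one between samples and may be technical. Besides the 6, the 19 hold the other 3 controls and embryos with β-catenin knocked down by a morpholino (3), given siamois mRNA (2), given cerberus mRNA (3) or treated with lithium chloride (2). One field of the labels of Wnt8-labelled replicate 1 names stage 10, while the other fields give 10.5. Further libraries of the series entered where named: Wnt8-labelled embryos and their batch controls at stage 9, the late blastula (3 each), embryos treated with lithium chloride (LiCl) at the 32-cell stage with the controls of their batches (2 each, stage 10.5), and dorsal and ventral half-embryos cut at stage 8 (5 each, stage 10.5). The LiCl fold changes come from the joint fit and do not rest on the LiCl libraries and these controls alone.

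Wnt8 is a secreted signalling protein. Bound to a Frizzled receptor and the co-receptor Lrp6 it stops the destruction complex from degrading β-catenin, which then enters the nucleus and switches on genes together with Tcf factors. In the frog the same pathway has opposite uses at different times. Maternal β-catenin, active on the dorsal side of the cleaving embryo, turns on siamois and nodal3 at the blastula stage and so founds the Spemann organizer, a tissue that secretes antagonists of BMP and Wnt ligands. During gastrulation, wnt8a made by the embryo itself in ventral and lateral mesoderm favours ventral and posterior fates. Supplying Wnt8 mRNA to cleaving embryos is the classical way of forcing a second organizer.

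The labelled messenger was looked for first. The wnt8a.S row had 7.31, 5.85 and 6.73 RPKM (reads per kilobase scaled to library size, the authors' unit) in the 3 Wnt8-labelled libraries, against 21.3, 18.5 and 22.8 RPKM in their controls. The wnt8a.L row had 55.9, 26.4 and 34.7 RPKM in Wnt8-labelled embryos, against 93.2, 65.7 and 102 RPKM in controls. Both copies were therefore lower in every Wnt8-labelled library than in every control, and neither row showed an excess of supplied messenger. The log2 fold change was -1.58 ± 0.21 (SE) for wnt8a.S, with a limma adjusted p of 0.0059, and -1.19 ± 0.23 for wnt8a.L, with a limma adjusted p of 0.044. At stage 9 the corresponding values were -0.59 ± 0.30 and 0.13 ± 0.23, neither of which passed the test. The rows go against the label as far as they measure the supplied messenger. Whether reads from that messenger map to these rows is not known, so the directions given here are those of the libraries labelled Wnt8. Both rows were also called lower with LiCl, with a median log2 fold change of -2.33, against -1.39 with Wnt8. In half-embryos their median difference, dorsal minus ventral, was -1.07 on the log2 scale. The part of the embryo's own wnt8a in these falls was not tested.

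The 6 libraries held 35.0 to 37.6 megareads in genes in Wnt8-labelled embryos and 37.0 to 43.6 megareads in controls. They had the RNA of gastrula embryos: SOX3-matching, sox17a, eomes and brachyury (t.S) rows were high, with means of 421, 114, 122 and 101 RPKM in Wnt8-labelled embryos for the highest row of each, against 346, 110, 105 and 113 RPKM in controls. The blood genes hba1, gata1 and tal1 stayed at or below 0.159 RPKM in all 6 libraries, the epidermal gene tp63 was also near 0, and LMO2-matching row Xelaev18021914m ranged from 0.348 to 5.5 RPKM. Of 17615 rows with at least 1 RPKM in at least 2 of the 6 libraries, 86 (0.488%) passed an adjusted p of 0.05 in limma with batch as a term. Of these, 36 (0.204%) were higher and 50 (0.284%) lower in Wnt8-labelled embryos. The change was at least 2-fold for 13 of the rises and 35 of the falls. All 86 moved the same way in 3 of 3 batches, but they were called on those same batches, so this is no independent evidence. The groups did not overlap for 34 of the 36 rises and 45 of the 50 falls; over all rows tested, 1.77% were higher and 1.71% lower without overlap.

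**Figure D1:**
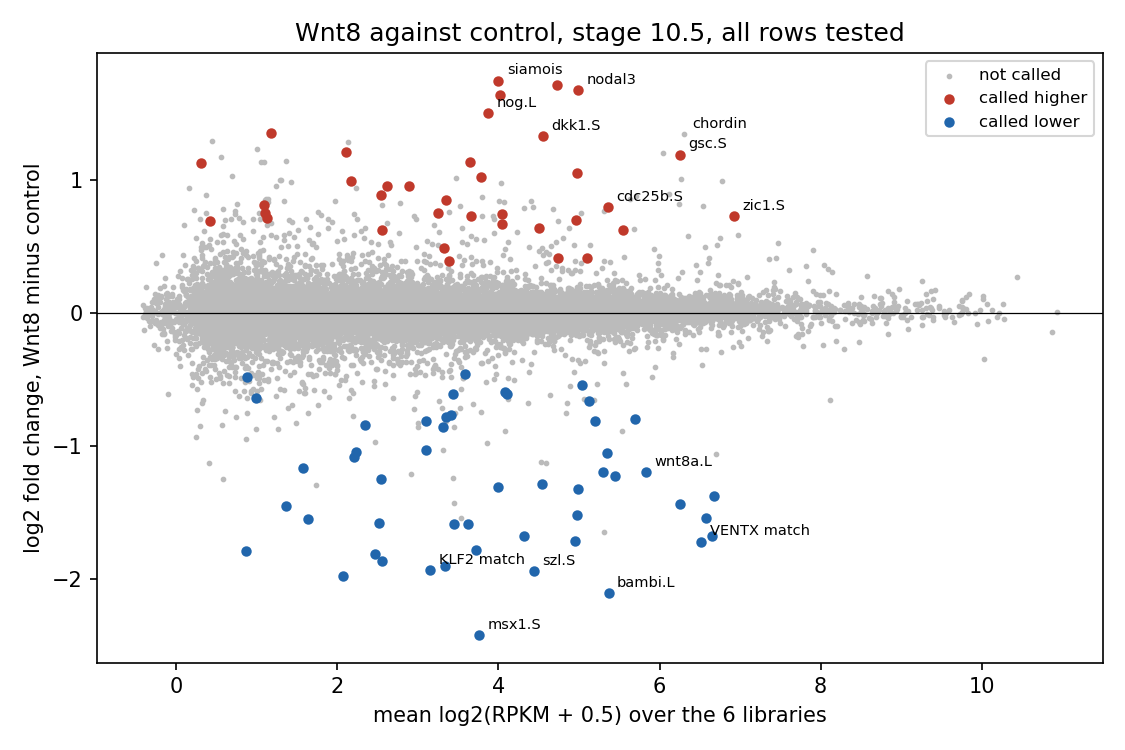
Log2 fold change of Wnt8-labelled over control embryos (y axis) against the mean log2(RPKM + 0.5) over the 6 libraries (x axis), one point for each of the 17615 rows tested. The 36 rows called higher (red) are led by siamois and nodal3, the 50 called lower (blue) by msx1.S and bambi.L, and the chordin row plotted above gsc.S was not called.

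The number of calls fell in every fit with 1 library left out, and least without Wnt8-labelled replicate 1. Without Wnt8-labelled replicate 1 it was 81, without replicate 2 it was 28 and without replicate 3 it was 28. Without control 4, 5 or 6 it was 29, 25 and 25. Of the 86 called rows, 17 kept their call in each of those 6 fits, of which 2 were rises (nog.L and cdc25b.S) and 15 were falls, and none changed direction. With the 6 libraries fitted alone, which leaves 2 residual degrees of freedom, there were 131 calls, 61 of them among the 86.

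The early dorsal targets of β-catenin stood highest. The siamois row Xelaev18019203m, a homeobox activator at the top of the organizer cascade, had 17.9, 51.5 and 26.0 RPKM in Wnt8-labelled embryos, against 5.95, 9.84 and 9.47 RPKM in controls. Every Wnt8-labelled library lay above every control, and replicate 2 lay far above the other 2. It rose by 1.75 ± 0.24 on the log2 scale (limma adjusted p = 0.0062). A second siamois row, Xelaev18000882m, was low throughout, with 2.89, 5.02 and 2.04 RPKM in Wnt8-labelled embryos and 1.05, 0.982 and 0.730 RPKM in controls. Its change was 1.36 ± 0.24 (limma adjusted p = 0.032). It reached the level for testing only through the Wnt8-labelled libraries, so its call is a description and no second piece of evidence. The twin row Xelaev18019205m, the close relative of siamois, had 1.79, 5.91 and 2.14 RPKM in Wnt8-labelled embryos against 2.43, 1.80 and 0.841 RPKM in controls and was not called (0.70 ± 0.26, limma adjusted p = 0.60).

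Nodal3 encodes a divergent Nodal-family ligand of the superficial organizer, and 3 neighbouring copies were measured. Xelaev18018866m had 44.6, 84.2 and 47.7 RPKM in Wnt8-labelled embryos, against 17.2, 17.1 and 17.5 RPKM in controls. The controls were nearly equal, and replicate 2 was again the highest Wnt8-labelled library. The rise was 1.68 ± 0.22 (limma adjusted p = 0.0054), with 1.72 ± 0.22 for copy Xelaev18018867m and 1.64 ± 0.23 for copy Xelaev18018868m. The copies are near-identical and can share reads, so they do not count as 3 observations. The mesendoderm-inducing ligands nodal6.L and Xnr5 (Xelaev18018805m) rose by 1.21 ± 0.21 and 0.72 ± 0.14 (limma adjusted p = 0.031 and 0.039), with at most 3.79 RPKM in the controls and, for nodal6.L, 1 Wnt8-labelled library below the highest control. Of 10 tested rows of the list of early β-catenin targets, 7 rose, none fell and the median log2 fold change was 1.29, against a median of 0.0025 over all rows tested. The 7 include the low siamois row Xelaev18000882m.

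**Figure D2:**
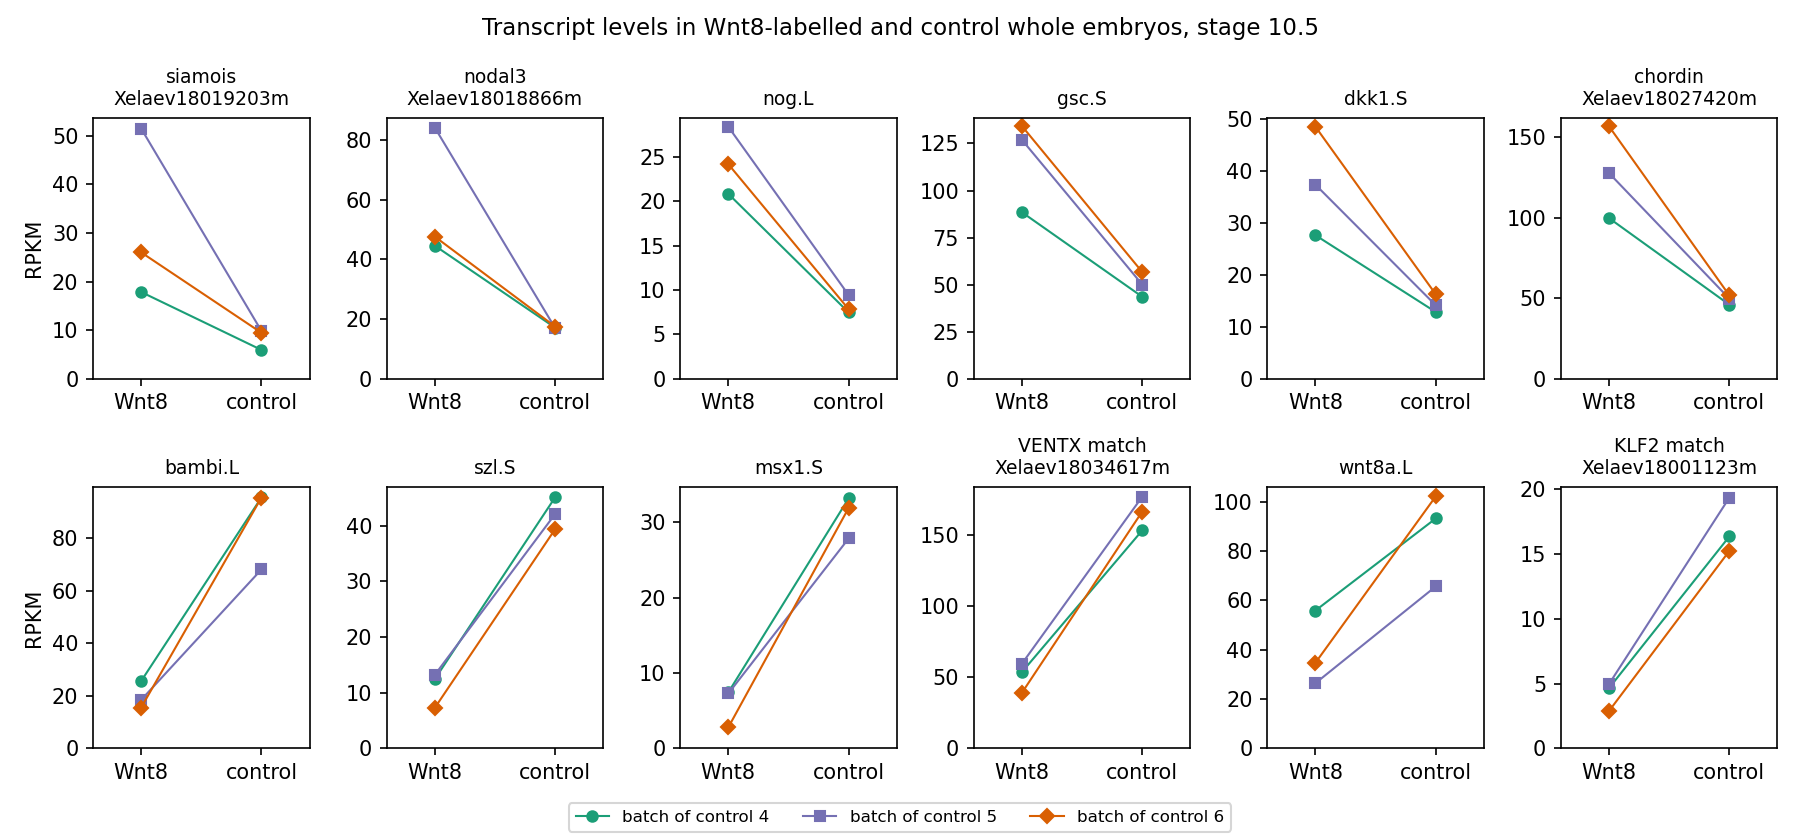
RPKM (y axis, from 0) of 12 transcripts in Wnt8-labelled and control embryos; lines join libraries of 1 batch. In the upper row every Wnt8-labelled point lies above every control, and in the lower row every one lies below, wnt8a.L included; the chordin row was not called in the limma fit.

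Among secreted antagonists, the noggin row nog.L was the firmest rise. The nog.L row, which encodes a protein that binds and blocks BMP ligands, had 20.8, 28.4 and 24.2 RPKM in Wnt8-labelled embryos, against 7.47, 9.43 and 7.84 RPKM in controls. The groups were apart by more than the spread within either, the rise was 1.51 ± 0.12 (limma adjusted p = 0.00064), and the adjusted p was at most 0.0079 with any 1 library left out. The low row nog.1 had 2.38, 3.74 and 2.94 RPKM in Wnt8-labelled embryos, against 0.957, 1.47 and 1.33 RPKM in controls. It was not called (1.00 ± 0.21, limma adjusted p = 0.084). With the 6 libraries fitted alone its limma adjusted p was 0.012, so the call depends on which libraries give the spread. Dkk1, which blocks the Wnt co-receptor Lrp6, had 27.6, 37.3 and 48.4 RPKM for dkk1.S in Wnt8-labelled embryos, against 12.8, 14.1 and 16.2 RPKM in controls. Both copies of it rose, dkk1.S by 1.33 ± 0.21 and dkk1.L by 1.14 ± 0.20 (limma adjusted p = 0.014 and 0.031). Follistatin, which binds activin and BMP, rose by 0.82 ± 0.15 for fst.S, a low row (limma adjusted p = 0.040). The copy fst.L, at 0.50, was not called (limma adjusted p = 0.83). A row matching SHISA2, a protein known in frogs to hold Frizzled receptors back in the cell, rose by 0.70 ± 0.13 (limma adjusted p = 0.032). The row named shisa2.L and the other SHISA2 match, at 0.19 and 0.33, were not called (limma adjusted p = 0.90 and 0.12).

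Chordin, the other main BMP antagonist of the organizer, did not pass the test. Its row Xelaev18027420m had 99.7, 128 and 157 RPKM in Wnt8-labelled embryos, against 46.0, 49.7 and 51.8 RPKM in controls, and the groups did not overlap. The difference was 1.35 ± 0.39 with a limma adjusted p of 0.31, and row Xelaev18029538m gave 0.82 ± 0.27 (limma adjusted p = 0.48); the remaining chordin row, Xelaev18027421m, was not called either (limma adjusted p = 0.45). With the 6 libraries fitted alone the 3 differences had limma adjusted p-values of 0.0078 to 0.010, so the call depends on which libraries give the spread. The cerberus rows, which encode a head-inducing antagonist of Nodal, BMP and Wnt ligands, gave 0.99 ± 0.39 (cer1.S) and 0.85 ± 0.29 (cer1.L) and were likewise not called (limma adjusted p = 0.65 and 0.50). Of 14 tested rows of BMP antagonists 2 rose, nog.L and fst.S, none fell and the median was 0.82. Of 19 rows of Wnt antagonists 3 rose (both dkk1 copies and the SHISA2 match) and 2 fell, the sizzled copies described among the ventral genes.

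Organizer transcription factors followed. The gsc.S row, a homeobox repressor of ventral genes, had 88.5, 127 and 134 RPKM in Wnt8-labelled embryos, against 43.6, 50.1 and 56.7 RPKM in controls. No library overlapped the other group, and it rose by 1.19 ± 0.18 (limma adjusted p = 0.0099). The copy gsc.L had 84.7, 151 and 101 RPKM in Wnt8-labelled embryos, against 43.9, 61.0 and 57.4 RPKM in controls, a difference of 1.01 ± 0.32 that was not called (limma adjusted p = 0.42). The OTX2-matching rows gave 0.90 ± 0.21 and 0.70 ± 0.22, and the anterior endoderm gene hhex 0.79 ± 0.20 (hhex.L) and 0.71 ± 0.18 (hhex.S), none of them called. Of 65 tested organizer rows 11 rose and 2 fell, and the median was 0.59. The 2 falls were the bambi copies, which also stand on the ventral BMP list and were higher ventrally in half-embryos. The signature genes that the authors chose on samples of this series are no independent evidence: 20 of their 120 tested rows rose, none fell and the median was 0.59.

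Neural plate genes rose by smaller steps. The zinc finger gene zic1.S, an early neural plate determinant, had 149, 156 and 163 RPKM in Wnt8-labelled embryos, against 93.9, 87.5 and 99.3 RPKM in controls. The groups did not overlap and it rose by 0.73 ± 0.12 (limma adjusted p = 0.015). Its relatives zic4.L and zic4.S rose by 0.96 ± 0.17 and 0.89 ± 0.13, the forkhead gene foxb1.L by 0.96 ± 0.18, the iroquois gene irx2.L by 0.76 ± 0.14, and the LIM-homeobox copies lhx5.L and lhx5.S by 0.67 ± 0.12 and 0.63 ± 0.10. The copies zic1.L, foxb1.S and irx2.S, at 0.88, 0.59 and 0.29, were not called (limma adjusted p = 0.11, 0.56 and 0.74). The T-box gene tbr1.S rose by 0.69 ± 0.12 at 2 RPKM or less. On the list of anterior neural and head genes 2 of 37 rows rose, zic1.S and irx2.L, none fell, 35 lay above 0 and the median was 0.39. The 2 HESX1-matching rows stood at -0.17 ± 0.28 and below the level for testing.

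The remaining rises were of mixed function. The leucine-rich repeat gene lrig3.L had 32.7, 49.3 and 56.3 RPKM in Wnt8-labelled embryos, against 17.9, 23.1 and 23.3 RPKM in controls, and rose by 1.06 ± 0.20. The cell cycle phosphatase gene cdc25b.S had 59.1, 49.8 and 52.8 RPKM in Wnt8-labelled embryos, against 36.9, 30.1 and 26.2 RPKM in controls, and rose by 0.80 ± 0.09 (limma adjusted p = 0.0022). It was the only one of 77 cell cycle rows called. A row matching the receptor FZD4 rose by 0.63 ± 0.09, fam83b.S by 0.99 ± 0.15, gadd45g.L by 0.64 ± 0.10 and the type I receptor gene acvr1.L by 0.39 ± 0.07. The others were rows matching ANGPT2, TSC22D3 and TPBG, the named rows cpe.1, plekhg5.L, tmcc1.S and clptm1-like.L, and 2 with no gene name, with rises of 0.41 to 1.13.

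The falls were led by genes that respond to BMP on the ventral side. Bambi encodes a membrane decoy that dampens BMP and activin receptors, and bambi.L had 25.6, 18.4 and 15.5 RPKM in Wnt8-labelled embryos, against 95.5, 68.1 and 95.5 RPKM in controls. The lowest control was over 2 times the highest Wnt8-labelled library. It fell by 2.11 on the log2 scale, a change of -2.11 ± 0.24 with a limma adjusted p of 0.0028, and bambi.S changed by -1.52 ± 0.21 (limma adjusted p = 0.0062). Sizzled, a secreted inhibitor of the proteases that cut chordin, had 12.42, 13.18 and 7.26 RPKM for szl.S in Wnt8-labelled embryos, against 45.1, 42.1 and 39.3 RPKM in controls. Both copies fell, szl.S by -1.94 ± 0.25 and szl.L by -1.72 ± 0.31 (limma adjusted p = 0.0054 and 0.034). These are whole-embryo values, so fewer ventral cells and less RNA per ventral cell cannot be told apart.

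The homeobox repressors of the ventral side fell as well. The row msx1.S, a BMP target, had 7.42, 7.27 and 2.78 RPKM in Wnt8-labelled embryos, against 33.2, 27.8 and 31.9 RPKM in controls. Replicate 3 was the lowest of all, and the change of -2.42 ± 0.37 (limma adjusted p = 0.012) was the largest fall called. The rows msx1.L, msx2.L and msx2.S changed by -1.78 ± 0.28, -1.45 ± 0.23 and -1.16 ± 0.16. Ventx genes keep ventral cells from forming organizer, and the row Xelaev18034617m, which matches VENTX, had 53.7, 59.6 and 39.1 RPKM in Wnt8-labelled embryos, against 154, 177 and 167 RPKM in controls. It changed by -1.72 ± 0.15 (limma adjusted p = 0.00064), and the 3 other VENTX-matching rows that were called changed by -1.44 to -1.67. The files name none of the 4 as ventx1.2 or ventx2.1, and they can share reads. Feedback and downstream genes of BMP fell too: the inhibitory Smad rows smad7-like.S and smad7-like.L by -1.08 ± 0.13 and -1.03 ± 0.13, an ID3 match by -1.37 ± 0.18 and id2.L by -0.81 ± 0.11. The other ID3 match, at -1.06, and the copy id2.S, at -0.20, were not called (limma adjusted p = 0.057 and 0.87). Of 49 tested rows of the ventral BMP list, 16 fell, none rose and the median was -0.64.

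Epidermal and non-neural ectoderm regulators made up the longest list of falls. The distal-less gene dlx5.S, active in ectoderm at the edge of the neural plate, had 13.7, 11.4 and 7.69 RPKM in Wnt8-labelled embryos, against 31.1, 39.3 and 35.6 RPKM in controls, and changed by -1.68 ± 0.25 (limma adjusted p = 0.0099). Its copy dlx5.L changed by -1.90 ± 0.31 and dlx3.S by -1.98 ± 0.35. The copy dlx3.L, at -0.65, was not called (limma adjusted p = 0.34). The KLF2-matching zinc finger row Xelaev18001123m had 4.65, 4.97 and 2.89 RPKM in Wnt8-labelled embryos, against 16.4, 19.4 and 15.3 RPKM in controls, and changed by -1.93 ± 0.20 (limma adjusted p = 0.0014). Both rows of dlx5 and this KLF2 match were without overlap between the groups. The other KLF2 matches called changed by -1.86 ± 0.26 and -1.05 ± 0.13, a KLF4 match by -1.19 ± 0.16, and klf5.L and klf5.S by -0.84 ± 0.14 and -0.78 ± 0.08.

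Grainyhead factors build the epidermal barrier and AP-2 factors specify epidermis and neural crest. The row grhl3.L had 21.0, 17.5 and 20.6 RPKM in Wnt8-labelled embryos, against 42.6, 52.4 and 55.5 RPKM in controls, and changed by -1.32 ± 0.16 (limma adjusted p = 0.0040). The grhl3.1 row changed by -1.28 ± 0.14, the GRHL1 matches by -1.24 ± 0.23 and -0.61 ± 0.11, the TFAP2A matches by -1.31 ± 0.22 and -1.22 ± 0.20, and the TFAP2C matches by -0.85 ± 0.13 and -0.79 ± 0.10. The forkhead gene foxi1.S, which specifies ion-transporting skin cells, changed by -1.55 ± 0.28 and trim29.L by -1.81 ± 0.33. The copy foxi1.L stood at -0.06 and was not called (limma adjusted p = 0.99). Of 66 tested rows of the epidermal list, 22 fell, none rose and the median was -0.33. On the list of posterior neural and neural crest genes 8 of 40 fell, namely the msx, TFAP2A and TFAP2C rows, and zic1.S rose. Markers of ciliated cells and early neurons (34 rows) and of blood (8 rows) had no call.

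**Figure D3:**
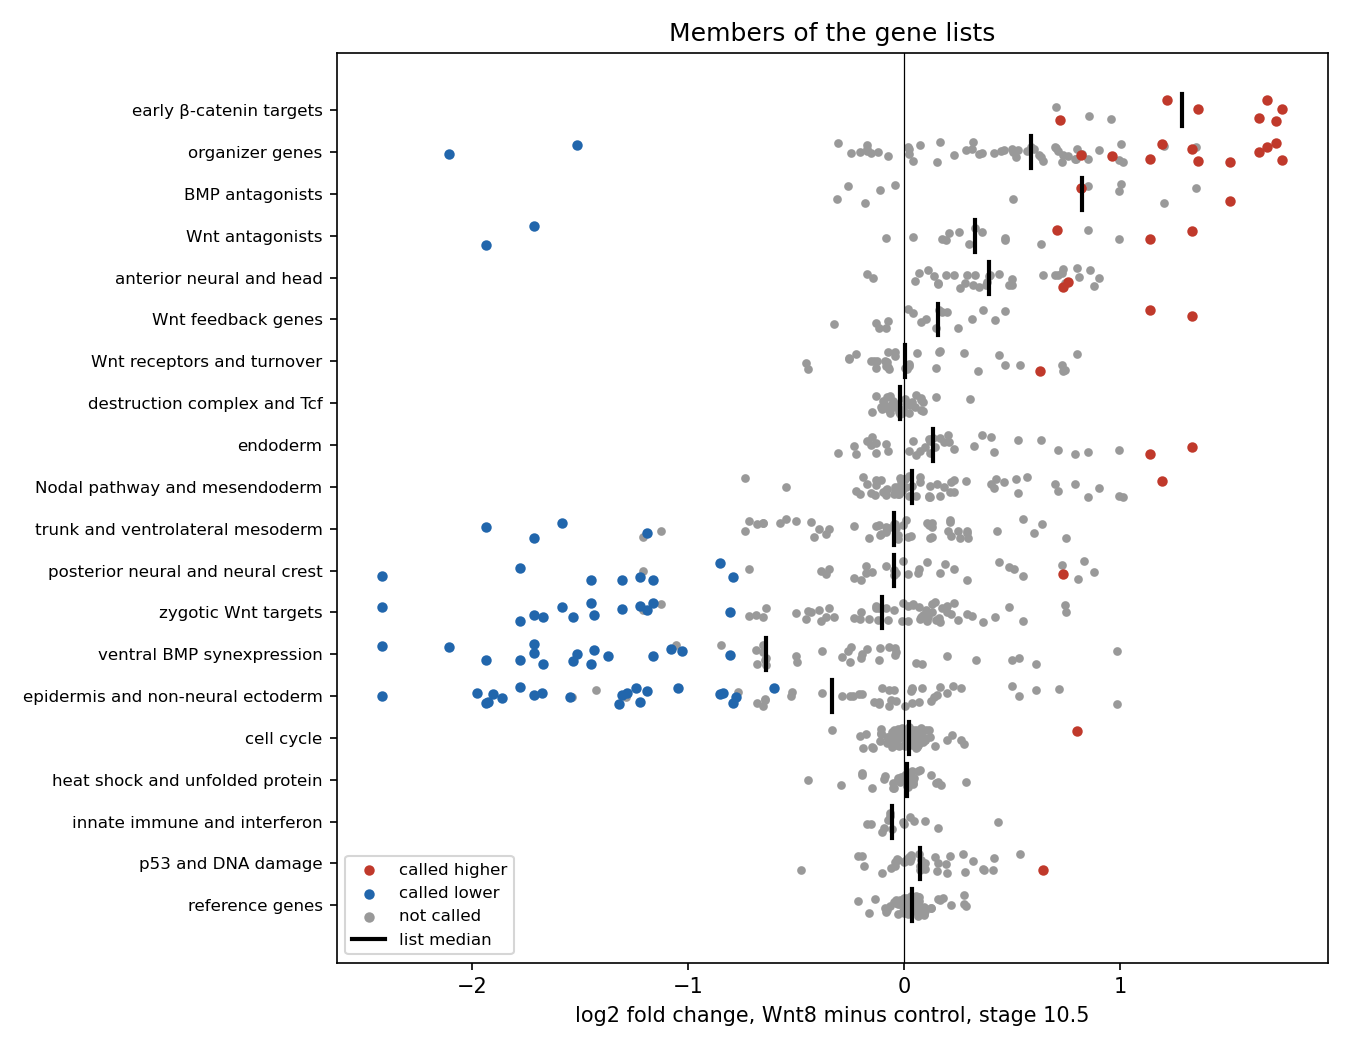
Log2 fold change of Wnt8-labelled over control embryos (x axis) for the tested members of 20 gene lists (rows), coloured where called; the bar is the list median. Early β-catenin targets and BMP antagonists have the highest medians (1.29 and 0.82) and the ventral BMP list the lowest (-0.64), while cell cycle, heat shock, innate immune and reference genes lie around 0. Some genes stand on several lists.

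The 3 batches gave early, organizer and ventral lists the same sign with different sizes. The median log2 fold change of the early β-catenin targets was 0.89 in the batch of control 4, 1.69 in that of control 5 and 1.41 in that of control 6. For the organizer list the 3 batch medians were 0.50, 0.60 and 0.62, and for the ventral BMP list -0.32, -0.53 and -0.65. The batch of control 4, whose Wnt8-labelled library carries the stage 10 label in one field, thus had the smallest median on these 3 lists, and the part of stage in that was not tested. The summed level of the early targets was 138 to 281 RPKM in Wnt8-labelled embryos and 54.5 to 60.8 RPKM in controls, and that of the ventral BMP list 1065 to 1182 RPKM in Wnt8-labelled embryos and 1968 to 2209 RPKM in controls. The epidermal list summed to 2874 to 2986 RPKM in Wnt8-labelled embryos and 3102 to 3491 RPKM in controls. For zygotic Wnt targets the batch medians were -0.11, 0.06 and -0.31, with no common sign.

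The falls outside those groups were few. A row matching the death ligand TNFSF10 changed by -1.58 ± 0.23, a low row matching CASR by -1.79 ± 0.19, the small GTPase gene rhou.S by -0.76 ± 0.14 and pnhd.L by -0.66 ± 0.11. The others were rows matching KIRREL, KIAA1551 and NAV2, the named rows sowahb.S, hs3st1.L and ier5l.1, and 3 with no gene name.

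Of 20 tested rows of the list of Wnt feedback genes, which mark a Wnt response in many tissues, 2 rose, the dkk1 copies given above, none fell and the median was 0.15. The β-catenin rows themselves differed by -0.07 ± 0.04 and -0.08 ± 0.04 (limma adjusted p = 0.85 and 0.82), at 335 to 361 RPKM in Wnt8-labelled embryos and 350 to 393 RPKM in controls. Axin2.L, the classical feedback scaffold, had 0.991, 1.49 and 0.550 RPKM in Wnt8-labelled embryos, against 1.78, 1.09 and 1.2 RPKM in controls. It was low and overlapping in both groups (-0.33 ± 0.18, limma adjusted p = 0.84). A second row that the files describe as axin-2, xarp-like.L, is not on the list and was more abundant, with 13.1, 10.7 and 13.4 RPKM in Wnt8-labelled embryos, against 12.3, 8.72 and 13.2 RPKM in controls. Its groups overlapped too (0.13 ± 0.10, limma adjusted p = 0.91). The nkd1, notum, lef1.L and tcf7.S rows gave values between -0.12 and 0.17, none of them called. The homeobox gene hoxd1, which zygotic Wnt8 is known to activate in the marginal zone, had 14.3, 10.3 and 10.6 RPKM for hoxd1.L in Wnt8-labelled embryos, against 15.6, 6.04 and 13.1 RPKM in controls. The groups overlapped, and the differences of 0.10 ± 0.17 (hoxd1.L) and 0.55 ± 0.24 (hoxd1.S) were not called. The posterior genes sp5.L, cdx4.S, cdx4.L, cdx2.S and cdx2.L gave 0.42 ± 0.21, -0.72 ± 0.29, -0.36 ± 0.32, -0.35 ± 0.26 and -1.21 ± 0.24, again without a call. Nearest to a call was cdx2.L (limma adjusted p = 0.055), with 4.95, 4.47 and 4.01 RPKM in Wnt8-labelled embryos, against 12.9, 7.57 and 13.5 RPKM in controls. For cdx2.L and cdx4.S every Wnt8-labelled library lay below every control.

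On the list of zygotic Wnt targets 13 of 72 rows fell, none rose and the median was -0.10. The 13 were the 4 msx rows, the 4 VENTX matches, the 2 TFAP2A matches, id2.L and the 2 wnt8a rows. Several of these also respond to BMP, and they stand on the ventral BMP or epidermal lists as well. In the trunk and ventrolateral mesoderm list 4 of 57 rows fell, which were wnt8a and sizzled, and the median was -0.05. Brachyury differed between its copies: t.L had 16.9, 9.24 and 25.3 RPKM in Wnt8-labelled embryos against 38.4, 19.3 and 58.8 RPKM in controls (-1.13 ± 0.24, limma adjusted p = 0.089), while t.S differed by -0.17 ± 0.28. Of 61 Nodal and mesendoderm rows 1 rose (gsc.S), and of 37 endoderm rows 2 rose (the dkk1 copies). No row of 40 in the destruction complex and Tcf list, 5 Wnt ligands, 34 heat shock, 15 innate immune, 19 germ plasm and 57 reference genes was called, and gadd45g.L was the 1 call among 39 p53 and DNA damage rows.

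The half-embryos, which share no library with the Wnt8 comparison, gave the normal side of expression of the called genes. All 35 rises with a value there were higher dorsally, with a median difference of 1.60 on the log2 scale, dorsal minus ventral, and 19 were called dorsal. All 50 falls were higher ventrally, with a median difference of -1.30, and 23 were called ventral. Of the 17199 rows tested in both comparisons, 41.7% were above 0 and 58.3% below, and 0.678% of the rows tested in half-embryos were called. The nog.L row, for example, had 17.6 ± 4.11 RPKM in dorsal and 0.589 ± 0.251 RPKM in ventral half-embryos (SD, n = 5 each). The bambi.L row had 24.8 ± 3.63 RPKM dorsally and 159 ± 83.6 RPKM ventrally (SD, n = 5 each).

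Read the other way, 96 rows were at least 2-fold higher dorsally with a call and 21 ventrally. Of the 93 dorsal rows tested with Wnt8, 19 rose, none fell, 92 lay above 0 and the median was 0.69. Of the 21 ventral rows 20 fell, all 21 lay below 0 and the median was -1.52. The dorsal genes that did not pass included those with the steepest gradients: chordin row Xelaev18027420m differed by 6.2 ± 0.41 between dorsal and ventral half-embryos, and by 1.35 ± 0.39 with Wnt8. Across the 17199 rows Pearson's r between the Wnt8 effect and the dorsal minus ventral difference was 0.57, a description over genes that are not independent.

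**Figure D4:**
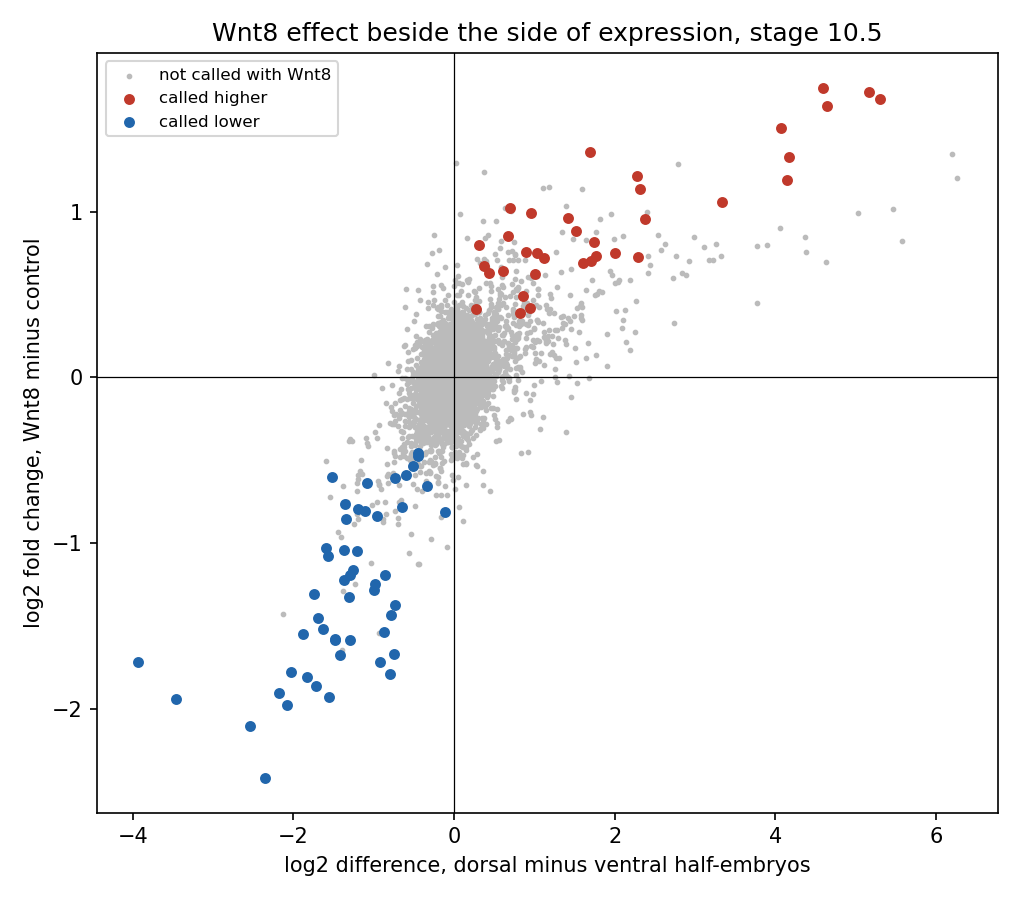
Log2 fold change of Wnt8-labelled over control whole embryos (y axis) against the log2 difference of dorsal minus ventral half-embryos (x axis), one point per row. All red points (called higher, 35 with a value) lie to the right of 0 and all blue points (called lower, 50) to the left.

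The Wnt8 effect was then set beside the one at stage 9, measured in other embryos in a separately made table, so that fold changes and not levels are compared. Of 17815 rows tested at stage 9, 20 (0.112%) were called, 19 higher (0.107%) and 1 lower (0.00561%). Siamois row Xelaev18019203m rose by 1.75 ± 0.24 at stage 10.5 and by 1.77 ± 0.20 at stage 9, a difference of -0.02 ± 0.31 on the log2 scale. Nodal3 row Xelaev18018866m rose by 1.68 ± 0.22 at stage 10.5 and by 1.75 ± 0.23 at stage 9, a difference of -0.07 ± 0.32. The noggin row nog.L, at 1.51 ± 0.12 at stage 10.5, stood at 1.45 ± 0.25 at stage 9 (limma adjusted p = 0.068), a difference of 0.05 ± 0.28.

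The effect differed between the stages for 29 of 16843 rows (0.172%), lower at stage 10.5 for 28 of them (0.166%) and higher for 1 (0.00594%). Of 51 rows of the zygotic Wnt target list tested at both stages, 10 had a lower effect at stage 10.5 and none a higher one; msx and TFAP2A rows are among the 10. The hoxd1.L row had 4.54, 10.1 and 3.78 RPKM in Wnt8-labelled embryos at stage 9, against 1.21, 1.54 and 0.595 RPKM in controls. Its groups overlapped at stage 10.5, with an effect of 0.10 ± 0.17, and were apart at stage 9, with a rise of 1.97 ± 0.22 (limma adjusted p = 0.0088). The difference between the stages was -1.87 ± 0.28 (adjusted p = 0.0025). The copy hoxd1.S had 2.40, 12.3 and 3.54 RPKM in Wnt8-labelled embryos at stage 9, against 0.692, 1.18 and 0.331 RPKM in controls (2.17 ± 0.29). This copy reached the level for testing there only through the Wnt8-labelled libraries, so its values at that stage are a description. Its difference between the stages, -1.62 ± 0.38, did not pass (adjusted p = 0.11). The cdx4.S row gave -0.72 ± 0.29 at stage 10.5 and 1.42 ± 0.22 at stage 9, a difference of -2.14 ± 0.36 (adjusted p = 0.0071). At stage 9 it had 1.08, 2.60 and 2.48 RPKM in Wnt8-labelled embryos, against 0.436, 0.282 and 0.536 RPKM in controls. It thus reached the level for testing there only through the Wnt8-labelled libraries, and its values at that stage are a description. The receptor gene fzd10.L gave -0.45 ± 0.13 at stage 10.5 and 1.49 ± 0.19 at stage 9, a difference of -1.94 ± 0.23 (adjusted p = 0.00065). The xarp-like.L row gave 0.13 ± 0.10 at stage 10.5 and 1.05 ± 0.14 at stage 9, where it was called (limma adjusted p = 0.017), a difference of -0.92 ± 0.18 (adjusted p = 0.025). The row xarp-like.S, which shares the name but is described as axin-1, gave 0.34 ± 0.09 at stage 10.5 and 0.45 ± 0.09 at stage 9. Its difference of -0.11 ± 0.13 did not pass.

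Ventral genes were also among the 28. The msx1.S row had 6.74, 5.04 and 6.08 RPKM in Wnt8-labelled embryos at stage 9, against 4.52, 2.00 and 2.42 RPKM in controls (0.95 ± 0.23, limma adjusted p = 0.32). Its groups did not overlap at either stage, lower in Wnt8-labelled embryos at stage 10.5 and higher at stage 9, and the difference between the stages was -3.37 ± 0.44 (adjusted p = 0.00068). The bambi.L row stood at -2.11 ± 0.24 at stage 10.5 and at -0.33 ± 0.17 at stage 9, and the difference was -1.78 ± 0.30 (adjusted p = 0.0079). Of the 50 falls at stage 10.5, 44 were tested at stage 9, where none was called and their median was -0.08, and 16 of them differed between the stages. Of the 36 rises, 31 were tested at stage 9, where 3 were called and their median was 0.50, and none differed between the stages.

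LiCl, which inhibits Gsk3 in the destruction complex and so raises β-catenin inside the cell, served as a second way of raising the pathway. Its dose is not compared here, its controls come from other batches, and no library enters both fold changes. The LiCl effects come from the joint fit of whole-embryo libraries, with group and batch as terms. Batches outside the Wnt8 comparison did not all hold the same groups. Libraries with β-catenin knocked down or given siamois mRNA therefore also enter the LiCl effects. These effects can differ from the mean over the LiCl libraries and their batch controls. All 36 rises with Wnt8 were above 0 with LiCl, 30 of them called, and 46 of 50 falls were below 0, 28 of them called. The msx2.S row alone was called in opposite directions. Over all rows, 3.9% were called higher and 11.3% lower with LiCl. The effects differed for 879 of 17615 rows (4.99%), of which 732 (4.16%) were higher with Wnt8 and 147 (0.835%) lower; with size factors in place of the deposited scale the count was 710, of which 404 were higher and 306 lower. Of the 86 rows called with Wnt8, 10 differed from LiCl.

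Both siamois rows and 1 nodal3 copy rose less with Wnt8 than with LiCl. Of these, the low siamois row Xelaev18000882m was tested only through its Wnt8-labelled libraries. Siamois row Xelaev18019203m had 157 and 133 RPKM in LiCl-treated embryos, against 11.2 and 16.1 RPKM in their controls. Its rise was 1.75 ± 0.24 with Wnt8 and 3.19 ± 0.28 with LiCl, a difference of -1.44 ± 0.37 on the log2 scale (limma adjusted p = 0.045). The msx1.S row gave -2.42 ± 0.37 with Wnt8 and 0.27 ± 0.43 with LiCl, a difference of -2.69 ± 0.57 (limma adjusted p = 0.025). The msx2.S row gave -1.16 ± 0.16 with Wnt8 and 1.13 ± 0.19 with LiCl, a difference of -2.29 ± 0.24 (limma adjusted p = 0.0016).

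Of the 72 zygotic Wnt target rows, 18 had a lower effect with Wnt8 than with LiCl, 1 had a higher one and 53 did not pass the test; with size factors 19 were lower and none higher. The hoxd1.L row had 22.4 and 24.3 RPKM in LiCl-treated embryos, against 2.01 and 2.93 RPKM in their controls. Its effect was 0.10 ± 0.17 with Wnt8 and 2.95 ± 0.20 with LiCl, a difference of -2.84 ± 0.26 (limma adjusted p = 0.00079). For sp5.L the Wnt8 effect differed by -2.63 ± 0.32, for cdx2.L by -2.41 ± 0.37 and for axin2.L by -1.85 ± 0.28 (limma adjusted p = 0.0031, 0.0084 and 0.0085). For xarp-like.L it differed by -1.42 ± 0.16 (limma adjusted p = 0.0018). The controls themselves differed between the batches: hoxd1.L had 15.6, 6.04 and 13.1 RPKM in the controls of the Wnt8 batches, and msx1.S had 33.2, 27.8 and 31.9 RPKM there against 5.25 and 9.03 RPKM in the controls of the LiCl batches. The part of these control levels in the differences was not tested. By contrast, the Wnt8 and LiCl effects on bambi.L were -2.11 ± 0.24 and -2.03 ± 0.28, and their difference of -0.07 ± 0.37 was not called.

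**Figure D5:**
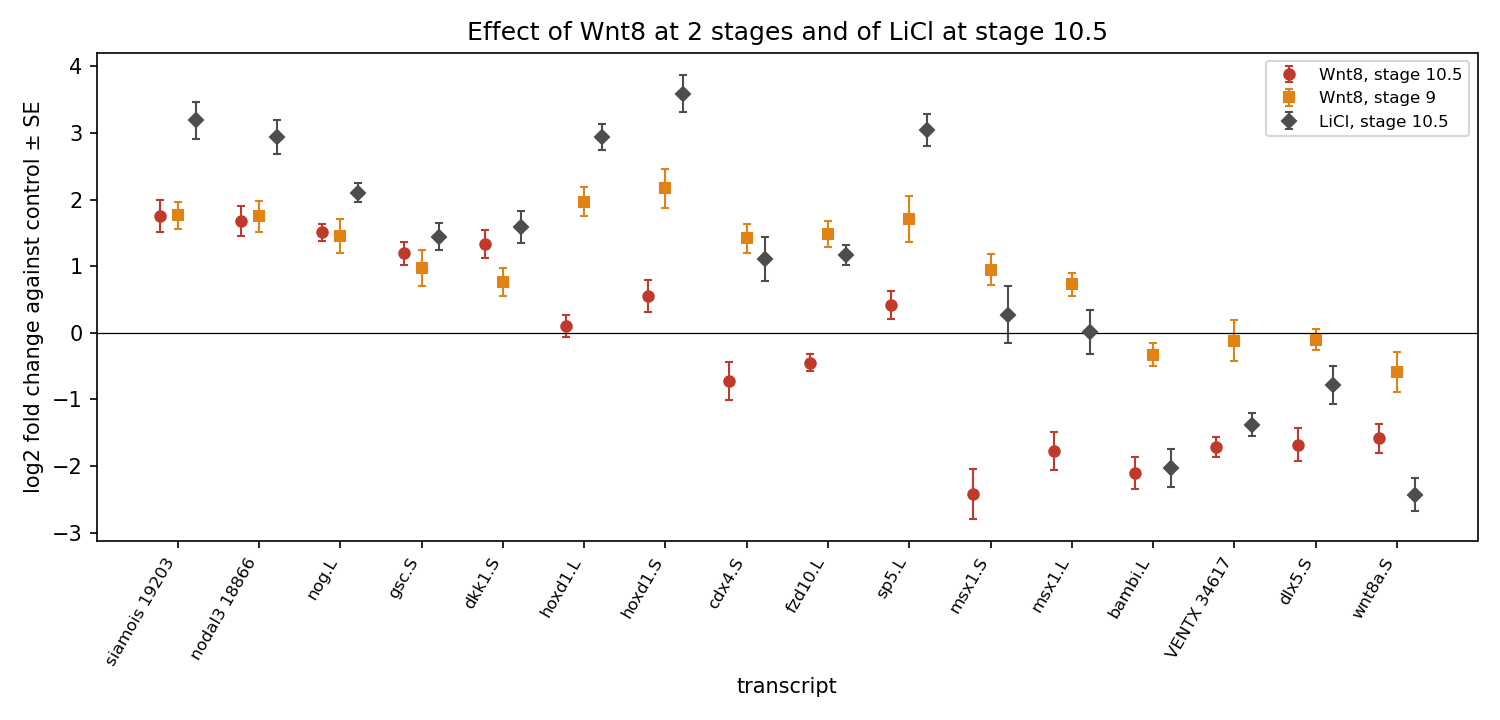
Log2 fold change against control ± SE (y axis) of 16 transcripts (x axis; numbers after a name are the last digits of the identifier) for Wnt8-labelled embryos at stage 10.5 (circles) and stage 9 (squares) and for LiCl at stage 10.5 (diamonds). Siamois, nodal3 and nog.L are high in all 3, whereas hoxd1.L is at 0.10 with Wnt8 at stage 10.5, 1.97 with Wnt8 at stage 9 and 2.95 with LiCl; msx1.S is lowest with Wnt8 at stage 10.5.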

How the data were processed

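The values are RPKM per gene row, deposited by the authors in 1 table per stage, per the file headers. The submitters' processing notes name TopHat2 2.09 and DESeq without a role. The sources used here give no genome build, counting tool or strand setting. The 19 whole-embryo libraries of stage 10.5 were fitted together in limma 3.58.1 (R 4.3.3; lmFit, eBayes with a trend) on log2(RPKM + 0.5), with group and labelled batch as terms and 8 residual degrees of freedom. Rows needed 1 RPKM in at least 2 of the 6 libraries. P-values are two-sided and Benjamini-Hochberg adjusted over all rows tested, and calls are at 0.05 with no fold minimum. The scale understates changes of low rows. Batch pairing comes from the labels. Deviations of Wnt8-labelled and control libraries from their group means correlated at 0.861 to 0.904 within a batch and at -0.522 to -0.345 otherwise. Such deviations cancel out within a group, so the negative values follow from the high ones and add no evidence.

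Stage 9 (7 residual degrees of freedom) and the half-embryos (no block) had fits of their own. Stages were compared with Satterthwaite degrees of freedom, Wnt8 and LiCl by a contrast. The column headed LiCl 3 was taken as LiCl replicate 2, whose label names control 3. Whole reads, recovered from the RPKM steps for 100% of rows above 0 in at least 5 libraries (within 0.005 reads), gave the depth. Replicates differed beyond sampling noise (chi-square per degree of freedom 44.4 to 60.6). Fits were tested on simulated data. Figures used matplotlib 3.10.9 in Python 3.11.15 with pandas 2.3.3 and numpy 2.4.6.

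The comparison and the 25 gene lists (629 symbols, 530 with a row, 685 rows tested) were chosen with earlier results of these data known. Named rows were wnt8a; the 15 largest rises and 15 largest falls called among named rows with at least 5 RPKM in the higher group and 1 sign in 3 batches; up to 4 called rows per list and direction; and a fixed set of organizer, ventral and Wnt genes. Other called rows, fzd10, xarp-like, further rows that differed between stages and some best-match rows were added after their values were seen; one row is not reported here. "Match" marks a name from a row's best match.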

Additional observations from a re-analysis of the deposited data

Results flagged for a closer look

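Each result here was singled out because the Wnt8 effect differed between stage 10.5 and stage 9 at an adjusted p below 0.05 (limma fits of each stage, Satterthwaite degrees of freedom); values are log2 differences of the effect, stage 10.5 minus stage 9. Of the 29 rows that met this, 28 are given here, and all but one of these are below 0. The homeobox repressors had the largest, with -3.37 for msx1.S and -2.51 for msx1.L. The BMP decoy rows gave -1.78 (bambi.L) and -1.41 (bambi.S), and id2.L gave -0.71.

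Zygotic Wnt targets and a Wnt receptor followed, with -2.14 for cdx4.S, -1.87 for hoxd1.L, -1.94 for fzd10.L and -1.56 for fzd10.S. These rows were higher with Wnt8 at stage 9, where each was called, and none was called at stage 10.5. The same holds for the axin-2 row xarp-like.L, with -0.92. At stage 9 cdx4.S was low and reached the level for testing only through the Wnt8-labelled libraries. The HES5 match Xelaev18037605m gave -1.69 and the HES7 match Xelaev18000897m gave 1.96, the one value above 0: its effect was 0.82 ± 0.22 at stage 10.5 and -1.13 ± 0.25 at stage 9, neither of them called. At stage 10.5 the HES7 match had 1.81, 1.60 and 1.87 RPKM in Wnt8-labelled embryos, against 1.11, 0.793 and 0.492 RPKM in controls. It reached the level for testing there only through the Wnt8-labelled libraries, so its difference is a description.

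Among ectodermal regulators the values were -2.14 for dlx5.L and -1.57 for dlx5.S, -1.61 and -1.51 for the TFAP2A matches Xelaev18033390m and Xelaev18031635m, and -0.95 for the TFAP2C match Xelaev18043492m. The Krüppel-like rows gave -1.68 (KLF4 match Xelaev18023103m), -1.50, -1.34 and -1.36 (KLF2 matches Xelaev18001123m, Xelaev18025218m and Xelaev18025217m) and -0.66 (klf5.S). The pnhd rows gave -1.87 (pnhd.L) and -1.56 (pnhd.S), ptgs2.S gave -1.59, and the unnamed rows Xelaev18000533m, Xelaev18038969m and Xelaev18026687m gave -1.68, -1.69 and -1.55. Causes were not tested, and stage 9 embryos were other embryos in other batches.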

How the results depend on the processing

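The count of 86 calls stayed within 1.5 times under pseudocounts of 0.1 (71) and 1 (94), a filter in all 6 libraries (86), size factors (85) and the 9 libraries of the same batches (90). It was 46 with no filter on low values, 131 (72 higher, 59 lower) with the 6 libraries alone and their replicate block, and 163 (80 higher, 83 lower, 85 shared) with limma voom on recovered reads, an alternative added after the data were seen. With no replicate block it was 8 over all whole-embryo libraries and 0 over the 6 libraries alone, where 267 rows had an unadjusted p below 0.05. Leaving out a library or a batch gave 12 to 81; without batch 5 it was 12, without batch 6 it was 15. The cause of these shifts was not tested. No called row changed direction in any of 19 settings, and 10 kept their call in every leave-one-out fit.

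The count of rows that differed between stages was 20 to 30 against 29, but 0 with no replicate block (125 at an unadjusted p below 0.05). The difference from LiCl numbered 864 to 972 under other pseudocounts and the stricter filter, 710 with size factors, 379 with no filter and 233 with no replicate block. The share of called rows whose sign matched their side in half-embryos was 98.8% or more in fits with every library, and 93.3% to 100% in leave-one-out fits, lowest without batch 6. Medians of 13 lists changed sign in some setting. EdgeR and DESeq2, listed as alternatives, were not run, because the deposited unit is RPKM. At these depths 3 reads on a row of 1 kilobase equal 0.0687 to 0.0857 RPKM, the limit that a count of 0 allows.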
